A study of Mus musculus with 8 samples.

Results

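The 46 genes described here encode the Wnt ligands, the frizzled and Lrp5/Lrp6 receptors, the secreted inhibitors of the Sfrp and Dkk families, the R-spondins with their Lgr receptors, and the core of the intracellular relay down to beta-catenin and the TCF/LEF factors. They were taken by gene name from the 17911 genes of the table, as every measured gene of these families apart from 1 Dkk name that the rule leaves out. The rule itself uses names and no measured value. By role they comprised 12 ligands, 10 frizzleds, 2 co-receptors, 4 Sfrp genes, Dkk2, 5 Lgr and R-spondin genes, 3 Dvl genes, 4 Axin and Apc genes, Ctnnb1 and 4 TCF/LEF genes.

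Wnt proteins are lipid-modified secreted signals that bind a frizzled receptor together with Lrp5 or Lrp6. In the canonical branch this binding halts the Axin and Apc complex that otherwise marks beta-catenin for destruction, so that beta-catenin enters the nucleus and activates genes with TCF/LEF factors; in other branches frizzleds signal through Dvl to cell polarity and calcium. In the heart, Wnt signalling is known for its part in development, in the epicardium and in the response of fibroblasts to injury.

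Whole hearts of 4 female and 4 male mice were sequenced, and the comparison asked which transcripts differed between the sexes. All 8 animals were C57Bl6/J wild type, untreated as far as the labels say, and carried the same batch label. Age was stated as 4 weeks in one place and as 4 to 6 weeks in another. RNA came from individual hearts, homogenized in Trizol and taken through a kit described for small RNA, although the molecule is listed as total RNA. Female hearts are numbered 1 to 4 and male hearts 1, 3, 4 and 5, and values of single hearts follow that order throughout.

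Between 51.7 M and 75.7 M reads per heart were recovered from the table, 51.7 M to 66.3 M in females and 55.0 M to 75.7 M in males. Levels are the deposited normalized reads, and levels of different genes are compared only after division by the length of their merged exons in kilobases (kb). Cardiomyocyte markers (Myh6, Actn2, Ryr2, Tnnt2, Ttn) summed to 3067950 to 3581620 normalized reads per heart, and all 5 were abundant in every heart. Ryr2, the calcium release channel of heart muscle, was called higher in females (0.20 on the log2 scale, adjusted p = 0.0341 by limma, no overlap) and the other 4 were not called; its part in the sex differences below was not tested. Macrophage markers (C1qa, C1qb, Csf1r, Adgre1, Mrc1) summed to 9974 to 11632 in females and 12553 to 15322 in males without overlap, and 3 of the 5 were called lower in females; their part in the sex differences below was not tested. Fat markers were highest in female heart 1 (sum 11709, against 1927 to 4794 in the other hearts). Of the 3 lung markers measured, Scgb1a1 reached 1268 in male heart 3. In that heart Sftpc was 0.861, below the 3.62 to 66.0 of the others, and Ager was 29.3, within their 22.4 to 34.1. In whole tissue, fewer cells of a type and less RNA per cell cannot be told apart.

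A single Wnt gene passed the test between the sexes. Fzd7, a frizzled receptor used in both canonical and polarity signalling, rose in female hearts by 0.28 on the log2 scale (SE 0.06; adjusted p = 0.035 by limma). That call made up 2.17% of the 46 members, beside 0.475% of all genes called higher in females. No member was called lower by limma, edgeR, DESeq2 or limma-voom, and 0.687% of all genes were called lower by limma. At an unadjusted p under 0.05, 10 members (21.7%) were higher in females beside 7.84% of all genes, and 1 member (2.17%) was lower beside 8.16%. In 4 members (8.70%) every female heart was above every male heart, beside 4.52% of all genes, and in 1 (2.17%) every female heart was below, beside 4.82%. Fold changes were positive for 34 of the 46 (73.9%), with a median log2 fold change of 0.08, whereas 50.9% of all genes were positive with a median of 0.002.

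**Figure D1:**
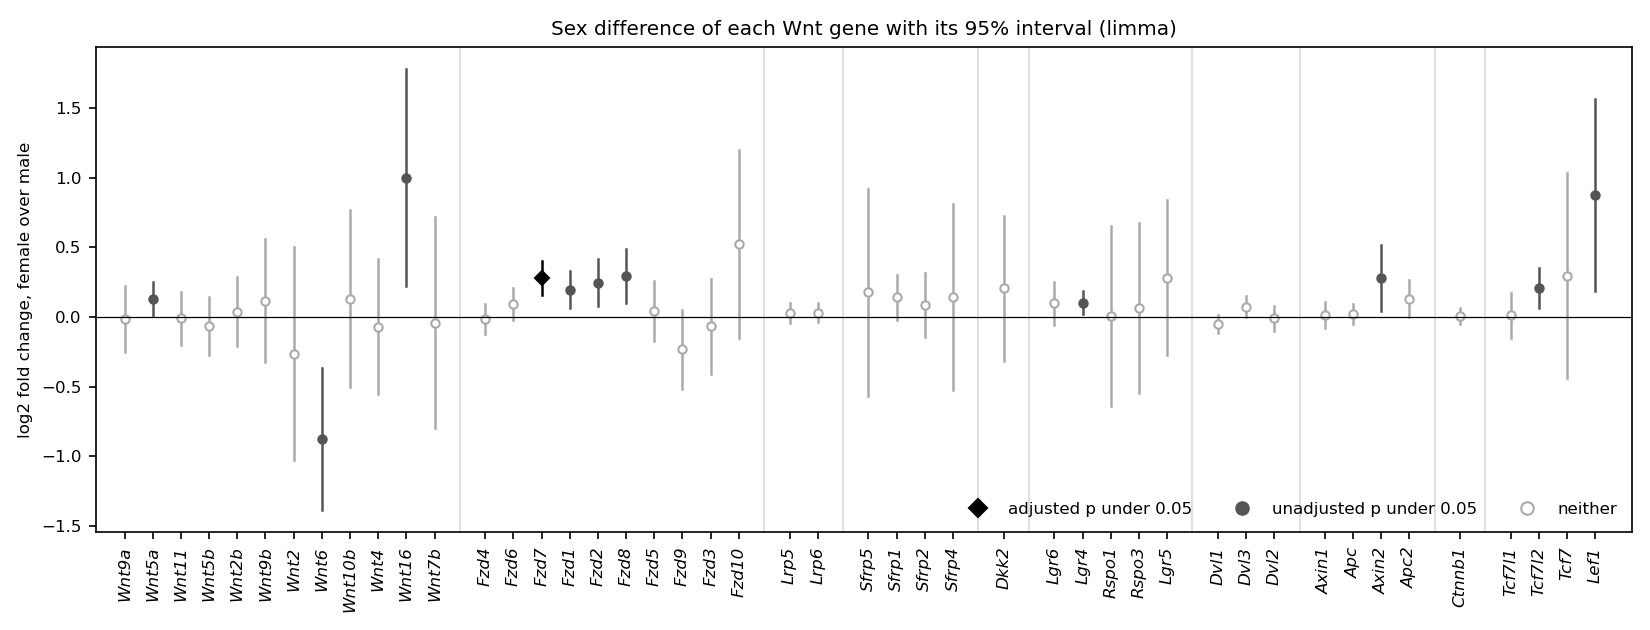
Log2 fold change (female over male, limma on log2 of the normalized value plus 1) of each of the 46 Wnt genes, ordered by role and then by level, with bars for the 95% interval. Fzd7 is the single gene with an adjusted p under 0.05, while the filled circles mark 10 further genes with an unadjusted p under 0.05, among them Fzd1, Fzd2 and Fzd8.

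Fzd7 lies on the plus strand of chromosome 1 at chr1:59482424-59486955 (mm10). Its normalized reads were 982, 975, 859 and 951 in the female hearts and 790, 737, 753 and 813 in the male hearts. The lowest female heart, number 3, was above the highest male heart, number 5. The means were 942 ± 56.6 in females and 773 ± 34.7 in males (SD, n = 4 per sex), and the 95% interval of the difference ran from 11.8% to 32.5% higher in females. The size held up better than the call: over 18 alternative fits the log2 fold change of Fzd7 stayed between 0.25 and 0.33, and 9 of them kept the call. Among these, the adjusted p rose to 0.0818 without female heart 1, to 0.124 without female heart 2, to 0.079 without female heart 4, to 0.067 without male heart 1, to 0.0982 without male heart 3 and to 0.102 without male heart 4. With total reads as a covariate it was 0.0855. In the authors' deposited table the adjusted p of Fzd7 was 0.001186.

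Promoter sequence was examined because Axin2, Lef1 and other genes of the pathway are known to be controlled by beta-catenin with TCF/LEF factors. The 250 bases before the start that RefSeq gives for Fzd7, chr1:59481897-59482146 on the plus strand (GRCm38.p6, the mm10 assembly), are shown as the sequence of the 1 gene that passed the test, with a TCF/LEF-type match in capitals. GENCODE places the start of the gene further downstream.
Fzd7 promoter: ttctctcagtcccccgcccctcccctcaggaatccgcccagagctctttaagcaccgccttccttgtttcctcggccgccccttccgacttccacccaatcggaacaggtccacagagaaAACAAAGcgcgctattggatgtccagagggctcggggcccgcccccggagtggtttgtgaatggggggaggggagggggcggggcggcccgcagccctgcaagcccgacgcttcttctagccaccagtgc

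The 4 spellings searched on both strands, chosen after the windows had been seen, were CTTTGAT, the usual site, with its variants CTTTGAA, then CTTTGTA, and finally CTTTGTT, which SOX-type factors also match. RefSeq promoters were found for 32 members, with 44 windows between them. A match stood in 6 of the 44 windows (13.6%), beside 14.8% of all 32851 promoters, and in 6 of the 32 genes (18.8%), beside 16.8% of 27025 genes. The share in the Wnt genes was thus near that of all genes. The matches of the other 5 genes are shown in stretches cut from the promoter strand, with the matched letters in capitals.
Wnt11, 51 bases before the start, chr7:98835049-98835078, plus strand: tgacgtgggcggATCAAAGcgacggtccgc
Wnt5b, 71 bases before a start, chr6:119449440-119449469, minus strand: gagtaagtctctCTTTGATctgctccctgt
Tcf7l2, 14 bases before an internal start, chr19:55895295-55895320, plus strand: caaaatatcaggCTTTGTTcttttga
Lef1, 147 bases before an internal start, chr3:131156135-131156164, plus strand: acaacctcagaaTACAAAGtaggattgcat
Apc2, 21 bases before an internal start, chr10:80301009-80301038, plus strand: tagacggaagggAACAAAGacggaaggagg
The start beside the Wnt5b match is also internal, and the window at the start that GENCODE gives for Wnt5b held no match. A match is a string of letters in a window, and binding was not measured here. Of these 5 genes, Tcf7l2 and Lef1 had an unadjusted p under 0.05 between the sexes, and Wnt11, Wnt5b and Apc2 did not.

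The ligands were led by Wnt9a and the non-canonical ligand Wnt5a. Per kb of exon, the mean level over the 8 hearts was 175 for Wnt9a, 139 for Wnt5a, 100 for Wnt11, another mostly non-canonical ligand, and 97.5 for Wnt5b. Heart ranges of Wnt9a and Wnt5a overlapped, as did those of Wnt11 and Wnt5b, while Wnt5a and Wnt11 were apart. Wnt2b followed at 47.9, Wnt9b at 18.3 and Wnt2 at 15.7 normalized reads per kb. The lowest 5 were Wnt6 (9.69), Wnt10b (7.36), Wnt4 (6.92), Wnt16 (3.90) and Wnt7b (2.06). Wnt7b had 81 reads over the 8 hearts, the lowest sum of any gene measured, and ligands below that sum have no row. Summed per kb, ligand transcripts came to 625 ± 27.1 in females and 623 ± 47.5 in males (SD, n = 4 per sex), so the ligand total was close in the sexes.

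Among the 12 ligands none was called, and 5 of the 12 fold changes were positive. At an unadjusted p under 0.05 (limma), 2 were higher and 1 lower in females, beside 7.84% and 8.16% of all genes. Wnt9a, the ligand of highest level, had 595, 695, 527 and 509 normalized reads in females and 576, 600, 662 and 503 in males. The sexes overlapped across their whole range, with a log2 fold change of -0.01 (limma, SE 0.11, adjusted p = 0.968). Wnt5a had 1089, 1219, 1087 and 1160 in females and 1074, 1022, 1102 and 958 in males. Only male heart 4 exceeded the lowest female hearts, and the log2 fold change was 0.13 (SE 0.06, limma adjusted p = 0.274). Some 3.38% of the 50-base stretches of Wnt5a exons also occur in the antisense gene Gm2670, and without a stated strand setting the reads of the 2 cannot be told apart.

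Wnt6 and Wnt16 were the ligands whose sexes did not overlap, in opposite directions, both at low read numbers. Wnt6, a canonical ligand (chr1:74771892-74785322, plus strand), had 17.5, 13.6, 11.7 and 15.8 normalized reads in females and 26.5, 22.4, 35.8 and 26.5 in males. Every male heart was above every female heart. Its log2 fold change was -0.88 (SE 0.23, limma adjusted p = 0.0976), and over 17 alternatives with an adjusted p it ran from -0.97 to -0.61 without a call. Wnt16 (chr6:22288227-22298522, plus strand) had 22.3, 23.3, 17.0 and 26.8 in females and 14.6, 15.5, 4.26 and 12.1 in males. Male heart 4 was the lowest and female heart 4 the highest. Its log2 fold change was 1.00 (SE 0.36, limma adjusted p = 0.202), and the 95% interval ran from 16.5% to 243% higher in females. The authors' deposited table gave unadjusted p-values of 0.006747 for Wnt6 and 0.02391 for Wnt16 and no adjusted p for either. The other 10 ligands had log2 fold changes between -0.26 (Wnt2) and 0.13 (Wnt5a and Wnt10b).

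**Figure D2:**
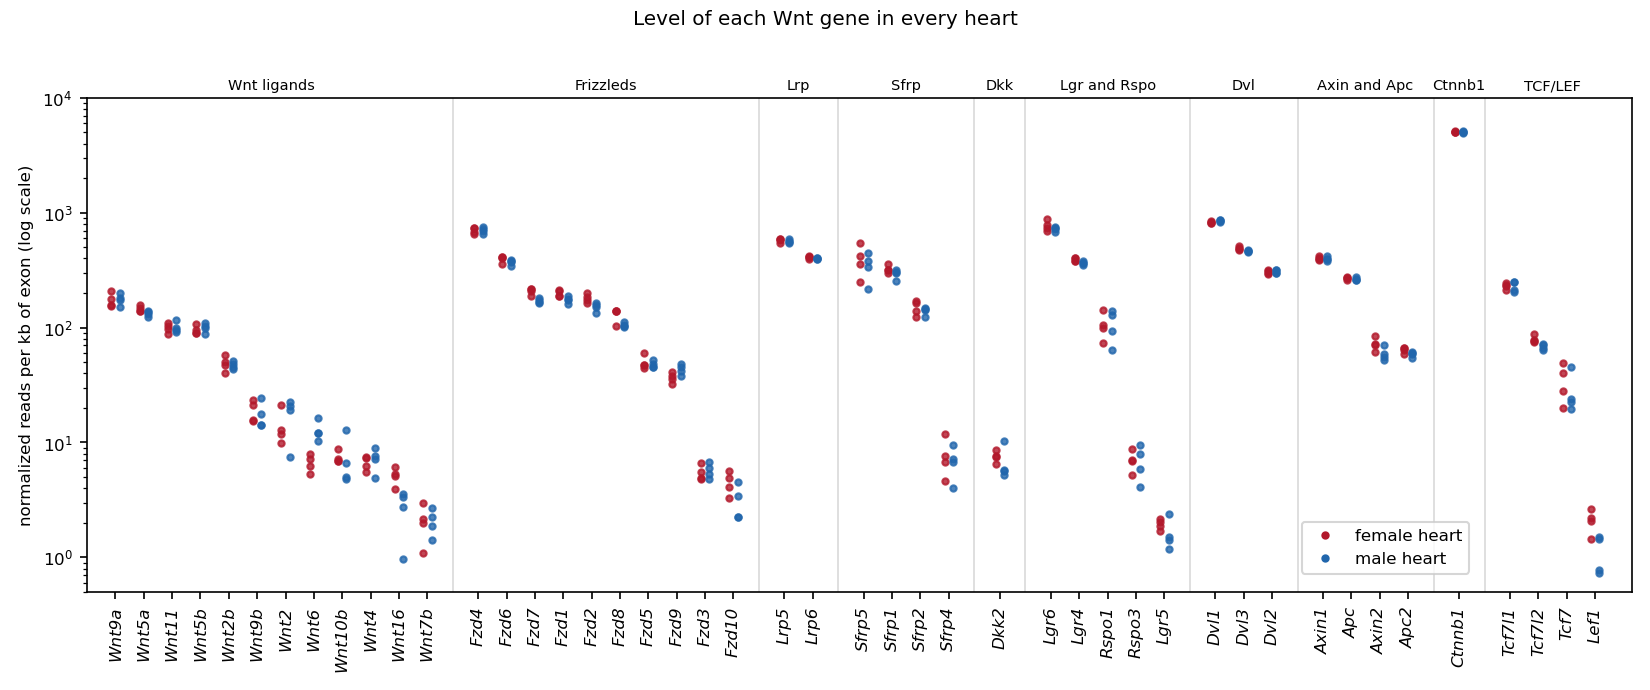
Level of each of the 46 Wnt genes in every heart, as normalized reads per kb of merged exon on a log axis, ordered by role and then by level, with female hearts in red and male hearts in blue. Ctnnb1 lies highest at 5056 on average, Fzd4 leads the frizzleds at 702, and the ligands lie between 175 for Wnt9a and 2.06 for Wnt7b.

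Among the frizzleds, the receptors that Wnt proteins bind first, Fzd4 led. Fzd4, which is known for its role in vessel growth and as the receptor of norrin, averaged 702 normalized reads per kb and made up 38.1% of the frizzled sum in the mean over hearts (34.9% to 41.7%). Fzd6 followed at 383, then Fzd7 at 189, Fzd1 at 188, Fzd2 at 166 and Fzd8 at 118. From Fzd7 to Fzd1, Fzd2 and Fzd8, each gene overlapped the next in its range over hearts, so these neighbours are not separated by range. Compared within each heart, Fzd7, Fzd1 and Fzd2 all lay above Fzd8 in every heart. Fzd5 (48.7) and Fzd9 (40.0) lay below, and Fzd3 (5.60) and Fzd10 (3.80) were lowest, each pair with overlapping ranges.

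The 4 frizzleds of intermediate level, Fzd7, Fzd1, Fzd2 and Fzd8, were the 4 of 10 with an unadjusted p under 0.05 (limma), all higher in females. Of all genes, 7.84% were higher and 8.16% lower at that threshold. Fzd7, Fzd1 and Fzd2 form one subfamily by sequence, whereas Fzd8 belongs with Fzd5. Fzd1 (chr5:4753839-4758035, minus strand) had 882, 894, 795 and 798 normalized reads in females and 784, 748, 678 and 726 in males. The sexes did not overlap, although female heart 3 and male heart 1 were close. Its log2 fold change was 0.20 (SE 0.06, limma adjusted p = 0.146), and none of 18 alternatives called it. Fzd2 (chr11:102604396-102608058, plus strand) had 733, 679, 634 and 594 in females and 556, 575, 598 and 495 in males. Female heart 4 was just under male heart 4, and no other hearts crossed. Its log2 fold change was 0.25 (SE 0.08, limma adjusted p = 0.151), and with total reads as a covariate the adjusted p of Fzd2 was 0.0223 at a log2 fold change of 0.35.

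Fzd8 was split by a single female heart. Its normalized reads were 833, 825, 829 and 621 in females and 612, 610, 633 and 665 in males, so 3 female hearts stood together above all males and female heart 4 lay among them. Over all 8 hearts the log2 fold change was 0.29 (SE 0.09, limma adjusted p = 0.143). Without female heart 4 the log2 fold change of Fzd8 was 0.40 (limma adjusted p = 0.00843). DESeq2 called Fzd8 with all hearts (adjusted p = 0.0304). The authors' deposited table gave nearly the same value from the same reads (adjusted p = 0.03034) and is not a separate source. That table gave an adjusted p for 34 of the 46 members and called Fzd7 and Fzd8, both higher, beside 2.16% of its 14088 genes. Fzd7, Fzd1, Fzd2 and Fzd8 share no 50-base stretch of exon with each other or with any other annotated gene.

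The other 6 frizzleds did not pass at an unadjusted p under 0.05. Fzd4 had 4394, 4562, 4938 and 4906 normalized reads in females and 4368, 4873, 4700 and 5009 in males. The sexes covered the same range, with a log2 fold change of -0.01 and a 95% interval from -7.89% to 6.88% (limma adjusted p = 0.94). Fzd6 had a log2 fold change of 0.09 (adjusted p = 0.427), Fzd9 of -0.23 (0.41) and Fzd10, at 7.24 to 18.4 normalized reads, of 0.52 (0.445) in the same fit. Fzd3 and Fzd5 had log2 fold changes of -0.07 and 0.05. Summed over the 10 frizzleds, normalized reads per kb came to 1910 ± 35.0 in females and 1778 ± 27.9 in males (SD, n = 4 per sex). The lowest female sum was 1876 and the highest male sum 1811.

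**Figure D3:**
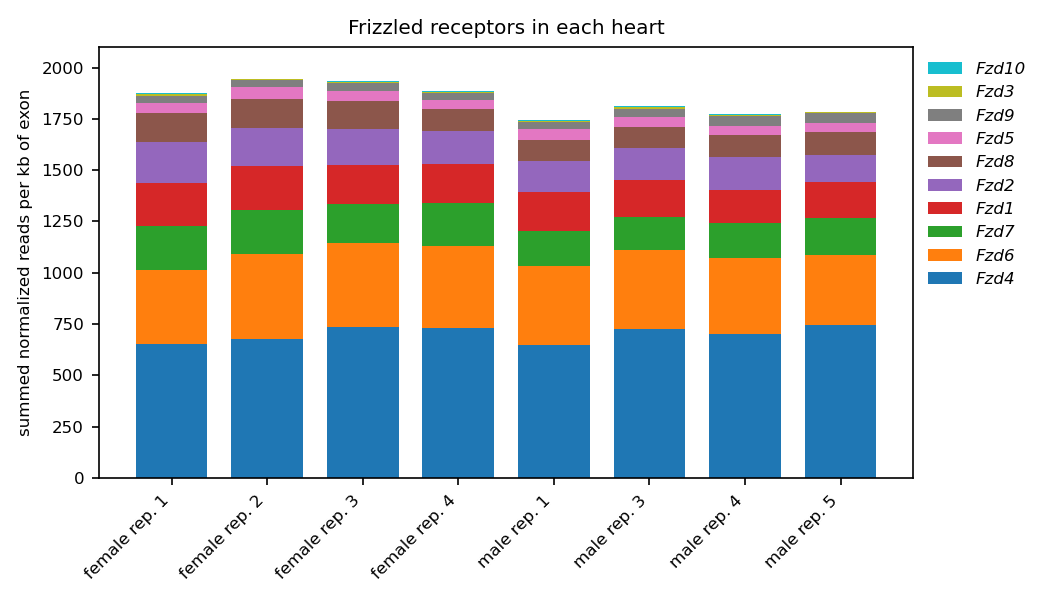
Normalized reads per kb of merged exon of the 10 frizzleds, stacked in each of the 8 hearts (bars start at 0; each colour is 1 receptor, in order of level from the bottom). Female sums run from 1876 to 1945 and male sums from 1744 to 1811, with Fzd4 the widest band in every heart.

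Neither co-receptor passed the test, and their intervals were narrow. Lrp5 averaged 569 normalized reads per kb and Lrp6 404, without overlap between them. With each gene's longest transcript as its length, the share of Lrp5 in the pair moved from 58.5% to 51.4%. Lrp5 had 5699, 5733, 5337 and 5637 normalized reads in females and 5528, 5695, 5383 and 5332 in males. Hearts of both sexes were mixed in order. Fold changes on the log2 scale were 0.03 for Lrp5 (SE 0.03, limma adjusted p = 0.724) and 0.03 for Lrp6 (0.653), and the 95% interval of Lrp5 ran from -3.00% to 7.52%.

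Among the 4 Sfrp genes and Dkk2, the highest levels were those of Sfrp5 and Sfrp1, decoys that bind Wnt proteins outside the cell. Per kb, Sfrp5 averaged 369 and Sfrp1 308 with overlapping ranges, followed by Sfrp2 at 144 and Sfrp4 at 7.27. Sfrp5 had 1035, 470, 686 and 797 normalized reads in females and 841, 414, 724 and 642 in males. It varied more within each sex than between them: the highest hearts were female 1 and male 1, the lowest female 2 and male 3, and the log2 fold change was 0.18 (SE 0.31, limma adjusted p = 0.839). All 4 Sfrp fold changes were positive and none was called by limma, edgeR, DESeq2 or limma-voom or had an unadjusted p under 0.05; Sfrp1 had the smallest adjusted p of the 4, 0.385, at a log2 fold change of 0.14. Dkk2, which blocks or modulates Lrp5 and Lrp6, had 24.2, 28.1, 27.7 and 31.7 normalized reads in females and 21.0, 37.9, 21.3 and 19.3 in males. Male heart 3 was the highest of all 8 hearts and the other 3 males the lowest (log2 fold change 0.21, SE 0.24, limma adjusted p = 0.734).

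R-spondins keep frizzleds at the cell surface by way of Lgr receptors, and here the receptors Lgr6 and Lgr4 had the highest levels and the receptor Lgr5 the lowest. Lgr6 averaged 748 normalized reads per kb, Lgr4 377, Rspo1 106, Rspo3 6.93 and Lgr5 1.78. Lgr6 had 4758, 5395, 5007 and 6057 normalized reads in females and 5036, 5155, 4621 and 4952 in males. Female heart 4 was highest and the rest were mixed (log2 fold change 0.10, SE 0.07, limma adjusted p = 0.544). Lgr4 (chr2:109917647-110014257, plus strand) had 2360, 2351, 2218 and 2252 in females and 2053, 2236, 2127 and 2133 in males. Male heart 3 alone reached into the female range, and the log2 fold change was 0.10 (SE 0.04, limma adjusted p = 0.214).

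Levels of members were also set beside marker sums of other cell types, heart by heart. Of 506 relations between the 46 members and 11 marker lists, 41 had an unadjusted p under 0.05 for Pearson's r and 29 for Spearman's rho (two-sided exact permutation tests on log2 values, n = 8), and 0 passed the adjustment for either. For Fzd7, the member called between the sexes, r with the macrophage sum was -0.791 (exact permutation p = 0.0266, adjusted p = 0.545). Neither Fzd7 nor the macrophage sum overlapped between the sexes, so this r over all hearts also carries the sex difference. Without the 2 hearts farthest from the median of the macrophage sum, r was -0.523. Among females the order of hearts was the same in both measures. Among males, heart 5 had the highest Fzd7 and the lowest macrophage sum. The part of macrophages in the Fzd7 level was not tested. Rspo1 and Tcf7 are shown as examples chosen after their values had been seen. Rspo1 had 276, 204, 144 and 191 normalized reads in females and 271, 182, 250 and 123 in males, and its log2 fold change between the sexes was 0.01 (limma adjusted p = 0.994). The summed epicardial and mesothelial markers (Upk3b, Msln, Wt1, Upk1b, Krt19) in the same hearts were 4442, 3403, 2269 and 2999 in females and 4282, 3109, 4407 and 2358 in males. Female heart 1, male heart 1 and male heart 4 were highest in both measures, and female heart 3 and male heart 5 lowest. Pearson's r was 0.973 (exact permutation p = 7.19e-04, n = 8) and Spearman's rho 0.929 (exact permutation p = 0.00223, n = 8), neither of which passed the adjustment over the 506 (adjusted p = 0.121 and 0.188); without the 2 hearts farthest from the median, r was 0.967. Other members reached a rho as high, among them Sfrp2 with fat markers (0.976), Axin1 with mesothelial markers (0.952), Wnt2b with fat markers (0.929) and Wnt2 with mesothelial markers (0.929). How much mesothelial tissue each heart carried was not tested.

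Tcf7, the TCF factor of T cells, had 107, 129, 73.5 and 52.4 normalized reads in females and 63.1, 51.6, 119 and 59.1 in males. Summed T cell and thymocyte markers (Cd3e, Cd8b1, Dntt, Rag1) were 80.5, 170, 33.0 and 17.1 in females and 24.7, 16.3, 200 and 14.5 in males. Male heart 4 and females 1 and 2 were the top 3 in both. Dntt, an enzyme of immature lymphocytes, was at 0 in female heart 4 and in male hearts 1, 3 and 5, where Tcf7 was between 51.6 and 63.1. Cd3e, in the same list, ran otherwise. It was 5.97 in male heart 4, below male heart 1 (13.7), male heart 3 (8.61) and female heart 4 (8.53). The marker sum of male heart 4 came mostly from Rag1 (108), Dntt (43.5) and Cd8b1 (42.6). The hearts formed a low set and a few high ones, so no pooled correlation is given; the part of lymphoid tissue in the Tcf7 level was not tested. The log2 fold change of Tcf7 between the sexes was 0.30 (SE 0.33, limma adjusted p = 0.72).

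**Figure D4:**
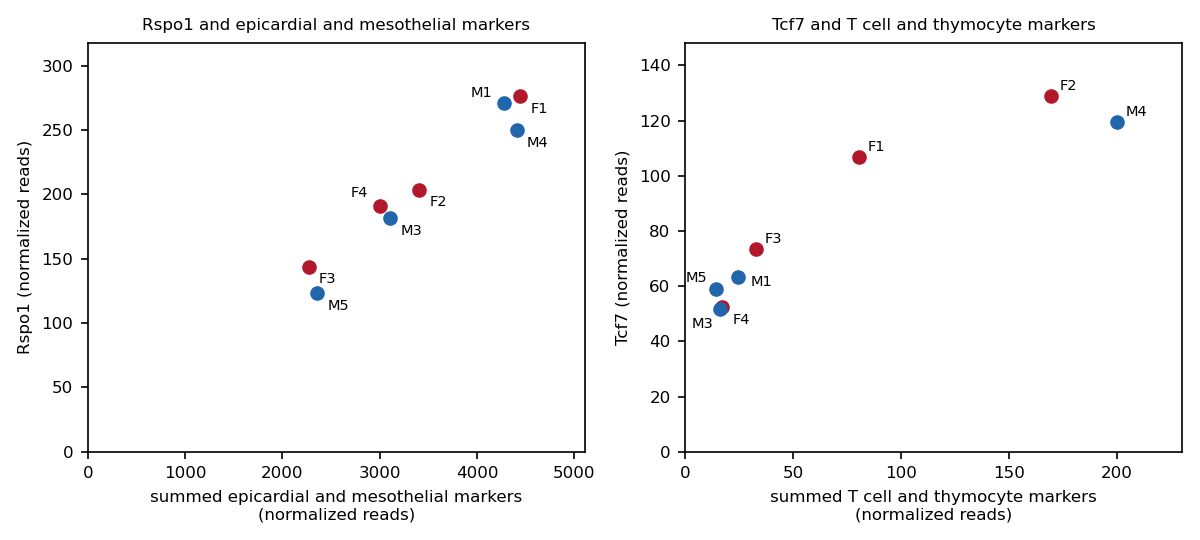
Rspo1 against summed epicardial and mesothelial markers (left) and Tcf7 against summed T cell and thymocyte markers (right), in normalized reads, 1 point per heart, with female hearts (F) in red and male hearts (M) in blue. Rspo1 runs from 123 in male heart 5 to 276 in female heart 1 with the marker sum highest in female heart 1, and Tcf7 is highest in female heart 2 and male heart 4, the hearts with the highest marker sums.

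The Dvl proteins, which carry the signal from frizzleds into the cell, were steady. Per kb, Dvl1 averaged 837, Dvl3 479 and Dvl2 307, without overlap between neighbours; Dvl1 made up 51.6% of the 3 genes, or 43.2% with longest transcripts as lengths. Their sum was 1621 ± 8.28 in females and 1625 ± 3.37 in males (SD, n = 4 per sex). Dvl1 had 4237, 4063, 4107 and 4055 normalized reads in females and 4163, 4314, 4283 and 4248 in males. Female heart 1 lay within the male range and the other 3 females below it, with a log2 fold change of -0.05 (limma, SE 0.03, adjusted p = 0.475). Dvl3 had a log2 fold change of 0.08 (adjusted p = 0.316) in the same fit. Dvl2 shares 13.0% of its 50-base stretches with Acadvl on the opposite strand, and without a stated strand setting reads of the 2 genes cannot be told apart there.

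In the destruction complex, Axin1 averaged 400 normalized reads per kb, Apc 266, Axin2 65.7 and Apc2 61.2. Axin1, the constitutive scaffold, had 1623, 1537, 1483 and 1509 normalized reads in females and 1526, 1521, 1599 and 1441 in males. The sexes overlapped, with a log2 fold change of 0.02 (limma, SE 0.04, adjusted p = 0.904). Axin2, a feedback inhibitor that is itself a widely used readout of canonical signalling (chr11:108920349-108950783, plus strand), had 463, 393, 392 and 341 in females and 388, 290, 323 and 305 in males. Male heart 1 was above female heart 4, and no other hearts crossed. The log2 fold change was 0.28 (SE 0.11, limma adjusted p = 0.231; authors' deposited table, adjusted p = 0.1655). Its 95% interval ran from 3.30% to 43.0% higher in females, and none of 18 alternatives called it. Apc and Apc2 had log2 fold changes of 0.02 and 0.13 (limma adjusted p = 0.81 and 0.314).

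Ctnnb1, which encodes beta-catenin, was the most abundant member per kb (5056) and among the least variable. It had 26214, 26499, 26211 and 26370 normalized reads in females and 26382, 26498, 26033 and 25798 in males. The hearts differed by little and the sexes overlapped. Between the sexes the log2 fold change was 0.01 (SE 0.03, limma adjusted p = 0.92), with a 95% interval from -3.38% to 4.66%. Exons of Ulk4, on the opposite strand, share 12.3% of its 50-base stretches. Beta-catenin also serves in cell junctions, and its signalling is known to be set by protein stability, which RNA does not measure.

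TCF/LEF factors, the DNA-binding partners of beta-catenin, were led by Tcf7l1 at 229 normalized reads per kb, with Tcf7l2 at 73.5, Tcf7 at 31.2 and Lef1 at 1.61. With each gene's longest transcript as its length, the order held but the levels were 296, 174, 33.1 and 3.87. The share of Tcf7l1 then moved from 68.4% to 58.4%. Tcf7l1, mostly a repressor, had 919, 900, 827 and 967 normalized reads in females and 803, 978, 830 and 979 in males. Hearts of both sexes were mixed (log2 fold change 0.01, SE 0.07, limma adjusted p = 0.953). Tcf7l2 (chr19:55741820-55933654, plus strand) had 682, 664, 653 and 765 in females and 578, 560, 625 and 630 in males. All female hearts were above all male hearts, female heart 4 by the widest margin. The log2 fold change was 0.21 (SE 0.07, limma adjusted p = 0.153), and none of 18 alternatives called it. Lef1 (chr3:131110471-131224356, plus strand) had 23.3, 19.4, 12.8 and 18.3 in females and 6.41, 6.88, 12.8 and 13.3 in males. Female heart 3 lay within the male range. Its log2 fold change was 0.88 (SE 0.32, limma adjusted p = 0.203), and 13.7% of its 50-base stretches are shared with the antisense gene Gm43352.

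**Figure D5:**
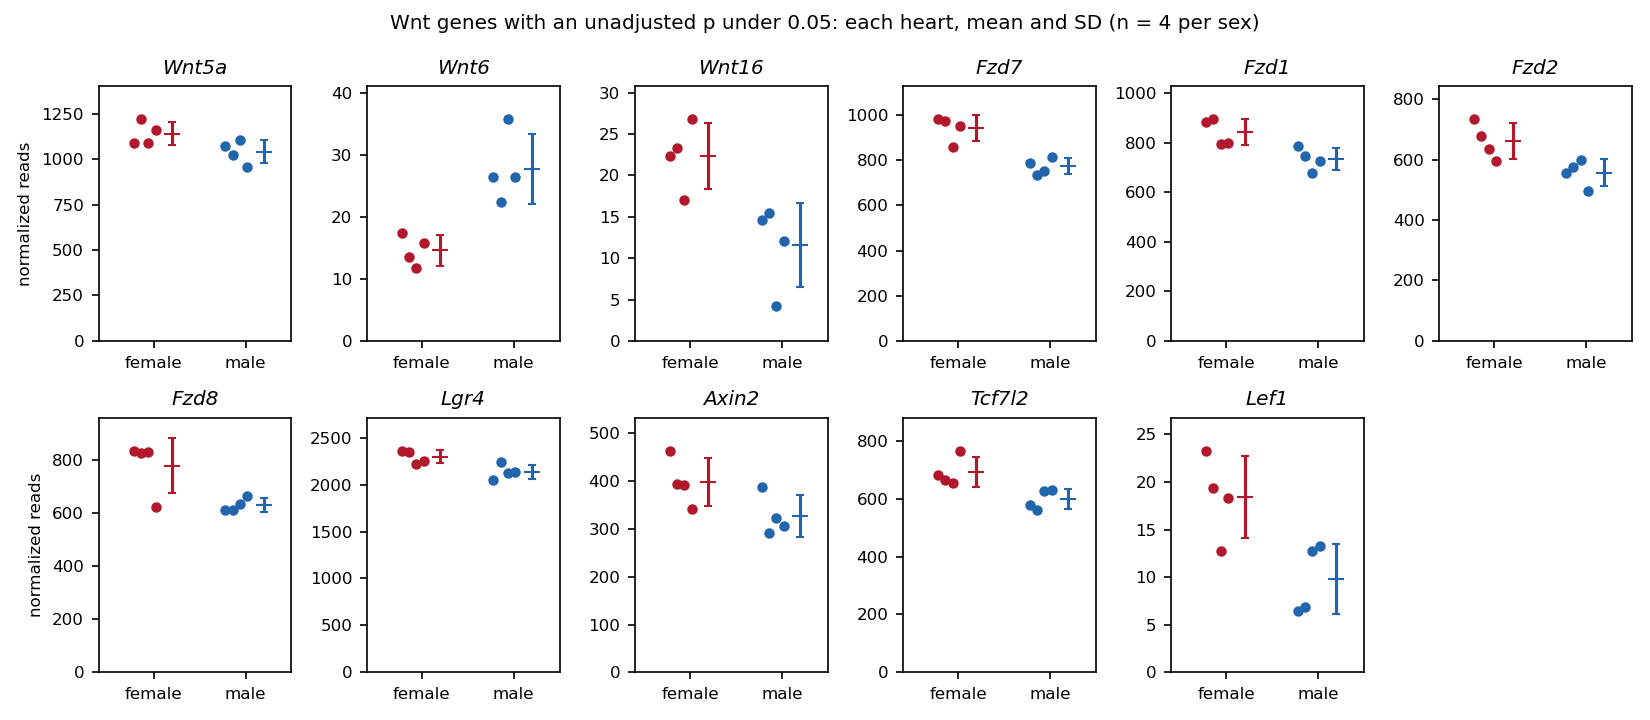
Normalized reads of the 11 Wnt genes with an unadjusted p under 0.05 (limma), 1 point per heart beside the mean and SD of each sex (n = 4), each panel on its own axis from 0. Female hearts lie above all male hearts for Fzd7, Fzd1, Tcf7l2 and Wnt16 and below them for Wnt6, and in the other panels the sexes overlap.

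By the thresholds that the series text states, an unadjusted p under 0.05 and a log2 fold change beyond 0.6, the members that passed were Lef1 and Wnt16 (higher in females) and Wnt6 (lower), beside 0.798% of all genes higher and 0.703% lower. All 3 had means under 50 normalized reads, as did 12 of the 46 members, and Fzd7 was not among them. Members varied more between hearts of 1 sex than genes at large: the median coefficient of variation was 10.6% in females and 9.60% in males, beside 6.98% and 7.23% over all genes. For the 34 members with a mean of at least 50 it was 7.51% and 6.06%, beside 5.31% and 5.40% for all genes of that level.

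Of 78 other genes of the pathway, grouped as receptors and receptor turnover, Wnt secretion, other inhibitors, beta-catenin turnover, nuclear co-factors, planar cell polarity and common target genes, 76 were measured; Cer1 and Sp5 had no row. By limma 0 were called higher and 1 lower in females, beside 0.475% and 0.687% of all genes. DESeq2 called 5 higher and 2 lower, beside 2.16% and 2.73% of the 14088 genes to which it gave an adjusted p. edgeR and limma-voom each called 0 higher and 1 lower, beside 0.497% and 0.698% of all genes for edgeR and 0.385% and 0.597% for limma-voom. At an unadjusted p under 0.05, 17 (22.4%) were higher and 3 (3.95%) lower, beside the 7.84% and 8.16% of all genes given above. Hearts of the sexes did not overlap in 7 (9.21%) higher and 3 (3.95%) lower, beside 4.52% and 4.82% of all genes. Fold changes were positive for 51 of the 76 (67.1%), beside 50.9% of all genes, with a median log2 fold change of 0.02.

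The gene called was Ccnd1, a cell cycle gene often listed as a beta-catenin target, and it fell in female hearts. It had 2555, 2387, 1977 and 2325 normalized reads in females and 2841, 3553, 3452 and 3259 in males. Every female heart was below every male heart, and the log2 fold change of Ccnd1 was -0.50 (SE 0.09, limma adjusted p = 0.0399). The call ended in 5 of 8 fits that left out a heart: without female heart 2 (adjusted p = 0.114), female heart 4 (0.0971), male heart 3 (0.0969), male heart 4 (0.127) or male heart 5 (0.0688). With total reads as a covariate the adjusted p of Ccnd1 was 0.137. Macrophage markers were lower in the same hearts, and their part in the Ccnd1 difference was not tested. The other target genes did not share the fall as a set. Of the 7 measured with Ccnd1, 4 fold changes were positive and 3 negative, with a median log2 fold change of 0.007. At an unadjusted p under 0.05 (limma), 1 was higher and 1, Ccnd1, lower, beside 7.84% and 8.16% of all genes.

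In the other lists the gene of smallest p did not pass the adjustment. Among inhibitors this was Frzb, an Sfrp relative that binds Wnt proteins, with 462, 449, 465 and 392 normalized reads in females and 321, 367, 371 and 358 in males. The sexes did not overlap (log2 fold change 0.32, SE 0.08, limma adjusted p = 0.0775; DESeq2 adjusted p of Frzb 0.0128). Among polarity genes it was Prickle1, with 1731, 2020, 2149 and 1808 in females and 1618, 1589, 1342 and 1512 in males. These too were apart (log2 fold change 0.34, SE 0.08, limma adjusted p = 0.0697; DESeq2 adjusted p of Prickle1 0.001389). Znrf3, the ubiquitin ligase that removes frizzleds from the surface and is held off by R-spondins, had a log2 fold change of 0.20 (limma adjusted p = 0.133), with 473 to 507 normalized reads in females and 415 to 449 in males. Amer1, a scaffold of the destruction complex (0.24, adjusted p = 0.108), Bcl9l, a beta-catenin co-activator (0.19, 0.123), and Vps29, a part of the retromer that recycles the Wnt carrier Wls (-0.10, 0.246), were the genes of smallest limma p in their lists. DESeq2 called Amer1 (adjusted p = 0.0391) and also the log2 fold change of Bcl9l (adjusted p = 0.0455), and did not call Znrf3 or Vps29. In the list of Amer1, Ctnnbip1 went the other way (log2 fold change -0.20, limma adjusted p = 0.109), with every female heart below every male heart. DESeq2 also called Ctnnbip1 lower and the polarity gene Dact1 higher.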

How the data were processed

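The deposited table held a signal value per gene and heart: by their values, reads scaled by the authors with 1 size factor per heart (0.821 to 1.17). Beside these stood log2 fold changes from the authors and the authors' p-values, raw and adjusted. Their adjusted p covered 14088 genes and was under 0.05 for 305 genes higher in females. DESeq2, run here on the same reads, gave the same 2 numbers, so it and the authors' values are not separate sources. The submitters' processing notes name mm10 as the build; how the reads were aligned, counted and filtered, with which strand setting, and which test the authors ran, is not given in the sources used here. All values (100%, tolerance 0.001) were whole multiples of 1 read, so whole reads were recovered. The lowest gene had 81 reads over 8 hearts, and genes below that are not analysed here.

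The main test was limma 3.58.1 (R 4.3.3, trend and robust options), comparing female with male hearts on log2(value + 1) without covariates. Genes needed a value of at least 1 in at least 4 hearts; 0 were removed. Calls required a Benjamini-Hochberg adjusted p under 0.05 over all 17911 genes, and each adjusted p comes from this limma fit except where a sentence names another source. The pseudocount shrinks the fold changes of low genes. Replicates are single hearts, and squared differences between pairs within a sex were 8.34 to 18.8 times those of sampling noise (chi-square per degree of freedom). Alternatives were edgeR 4.0.16, DESeq2 1.42.0 and limma-voom on whole reads, pseudocounts of 0.1 and 10, no filter or a mean of at least 50, the thresholds of the series text, leaving out each heart, 2 replicate blocks, and total reads as a covariate. The main limma fit was also run on simulated counts, in which all genes were given the same spread. The alternative fits were not run on simulated counts.

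Positions and exon lengths came from GENCODE vM21 (mm10), in which all 46 members were found by identifier. Sharing of 50-base stretches with a gene on the opposite strand is not limited to the members where it is given above. It was 16.45% for Fzd5 (mainly with Gm38058), 12.0% for Sfrp2 (Gm26771), 11.6% for Rspo3 (Gm48159) and 7.46% for Wnt11 (Gm8398). The members, gene lists and tests were chosen with earlier results of these data known. Values of single hearts are given for members with an unadjusted p under 0.05 and for the member of highest level per kb in each role. Of each pathway list, the genes called by limma are named, or else the 1 gene of smallest p. Ctnnbip1 and Dact1, called by DESeq2, are named besides. Rspo1, Tcf7 and other values by heart were added after they had been seen.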

Additional observations from a re-analysis of the deposited data

Results flagged for a closer look

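In 4 of 92 groups of 4 hearts (46 genes in 2 sexes), 1 heart stood far from the other 3, by a gap beyond Dixon's 95% critical value; chance flags about 1 in 20 groups. Fzd8 was 621.2 normalized reads in female heart 4, against 825.2 to 833.2 in the other females. Tcf7 was 119.3 in male heart 4, against 51.63 to 63.15 in the other males, and male heart 4 also had the highest sum of T cell and thymocyte markers. Dkk2 was 37.86 in male heart 3, against 19.31 to 21.31 in the other males. Wnt10b, a canonical ligand, was 30.07 in female heart 1, against 23.27 to 24.36 in the other females. Of these genes, Fzd8 alone had a call that changed without its outlying heart.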

How the results depend on the processing

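Over all genes, 208 were called; DESeq2 called 690, the replicate block by library code 26, and the fits that left out 1 heart between 77 and 516. Wnt genes called higher numbered 1 (Fzd7), but 2 by DESeq2 (Fzd7 and Fzd8), 2 by the thresholds of the series text, 0 with the replicate block by title number, 0 with the replicate block by library code, and 0 to 1 with a heart left out. With total reads as a covariate the 1 called was Fzd2. Wnt genes called lower numbered 0, but 1 by the thresholds of the series text (Wnt6). The filter removed 0 genes, so omitting it changed nothing.

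The replicate numbers did not pair the hearts: deviations of same-numbered hearts correlated at 0.217, -0.0624 and -0.0886 for title numbers 1, 3 and 4, and at 0.217, -0.0624 and 0.18 for library codes 1, 3 and 5. In the 2 replicate blocks the log2 fold change of Fzd7 was 0.29 and 0.25 (adjusted p = 0.0846 and 0.269), and that of Ccnd1 was -0.52 and -0.50 (0.261 and 0.433).

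Neither Fzd7 nor Ccnd1 changed sign in any alternative. Between 0 and 8 of the 46 members, none of them called, had the other sign in a given alternative. The cause of these changes was not tested. The 12 members under 50 normalized reads have wide intervals, and 4 hearts per sex limit what can be called.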
